A study of Mus musculus with 3 samples.

Results

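The windows described here are stretches of 2 kb of the mouse genome in which none of 3 histone marks, H3K4me3, H3K27me3 or H3K36me3, was called in fully-grown oocytes. A window was a member when the table of marked windows did not list it and its mean H3K36me3 value over 3 replicates was 1 RPKM or less. RPKM, the authors' name for these values, was the only measured quantity, and it also chose the members. The values were closer to reads scaled to library depth alone than to reads also divided by window length. Of 1186323 valid windows, 315168 were unmarked, which is 26.6% of the windows and 630 Mb of sequence. All libraries came from germinal vesicle (GV) oocytes, fully-grown cells arrested in the first meiotic prophase, taken from wildtype C57BL6/Babr females aged 25 days. Each of the 3 H3K36me3 libraries was made by native chromatin immunoprecipitation from a pool of about 280 oocytes, with less antibody in replicate 2, and there was no second condition. Nothing in the sources used here ties the pools to separate mice, so the spread between replicates may be partly technical. The H3K4me3 and H3K27me3 calls came from earlier libraries of the same laboratory and carry no replicates.

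H3K36me3 is placed on the bodies of genes as RNA polymerase II transcribes them, and in growing oocytes it is known to accompany the DNA methylation that follows transcription. H3K4me3 marks promoters in most cells and in oocytes also spreads over broad untranscribed domains, while H3K27me3 is laid down by the Polycomb repressive complex over silent regions. Unmarked windows are what is left when all of these are below the calling threshold. The cell type could be looked at only through chromatin. Of the valid windows of 15 oocyte genes, among them Zp3, Gdf9 and Bmp15, 80.6% were above 1 RPKM. All other gene lists used here were lower, but proteasome subunit genes (77.99%) and ribosomal protein genes (76.7%) came close. These are housekeeping genes, so the share in oocyte genes does not by itself identify the cell type.

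To show what such sequence looks like, 300 bases from the centre of each of the 3 longest runs of unmarked windows are printed, with CG dinucleotides, the target of DNA methylation, in capitals. They are from GRCm38, plus strand, and none of them overlaps an annotated gene. The first lies at chr17:18673851-18674150, the second at chr17:39186851-39187150 and the third at chr9:39154851-39155150.
Run 1 centre: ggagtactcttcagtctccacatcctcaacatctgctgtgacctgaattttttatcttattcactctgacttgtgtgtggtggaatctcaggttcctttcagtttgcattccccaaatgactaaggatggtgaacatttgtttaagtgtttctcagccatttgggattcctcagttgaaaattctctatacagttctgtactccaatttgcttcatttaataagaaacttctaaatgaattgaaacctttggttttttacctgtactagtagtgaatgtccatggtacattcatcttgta
Run 2 centre: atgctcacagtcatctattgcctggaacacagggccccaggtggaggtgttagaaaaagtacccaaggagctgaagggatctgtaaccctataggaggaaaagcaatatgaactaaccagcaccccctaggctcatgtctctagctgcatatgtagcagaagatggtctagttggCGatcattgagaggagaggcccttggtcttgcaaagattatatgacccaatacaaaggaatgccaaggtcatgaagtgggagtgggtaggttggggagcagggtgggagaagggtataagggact
Run 3 centre: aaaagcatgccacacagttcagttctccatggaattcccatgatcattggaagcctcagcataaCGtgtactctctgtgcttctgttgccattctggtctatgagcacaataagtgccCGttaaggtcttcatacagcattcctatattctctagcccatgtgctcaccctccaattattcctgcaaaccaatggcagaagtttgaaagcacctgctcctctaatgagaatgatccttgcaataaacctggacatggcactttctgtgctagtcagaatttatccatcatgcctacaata
They hold 0, 1 and 2 CG dinucleotides, and repeats cover 54.7%, 91.0% and 0% of their bases. Over all unmarked windows, the central 300 bases had a mean of 1.67 CG and 29.5% had none, against a mean of 2.49 and 19.4% without any over all valid windows.

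The sequence before the start of a gene is shown for the 3 wholly unmarked protein-coding genes that span the most windows. Each stretch is the 250 bases upstream on the strand of the gene, outside every annotated gene, again with CG in capitals. The positions are chr5:146079007-146079256 for Cyp3a59 (plus strand), chr5:146009619-146009868 for Cyp3a25 (minus strand) and chr4:147553027-147553276 for Zfp985 (plus strand).
Cyp3a59 upstream: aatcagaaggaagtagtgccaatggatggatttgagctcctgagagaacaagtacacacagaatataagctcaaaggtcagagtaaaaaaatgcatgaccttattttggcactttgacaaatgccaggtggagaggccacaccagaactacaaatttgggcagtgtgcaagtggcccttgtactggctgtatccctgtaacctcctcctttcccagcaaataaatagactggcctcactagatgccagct
Cyp3a25 upstream: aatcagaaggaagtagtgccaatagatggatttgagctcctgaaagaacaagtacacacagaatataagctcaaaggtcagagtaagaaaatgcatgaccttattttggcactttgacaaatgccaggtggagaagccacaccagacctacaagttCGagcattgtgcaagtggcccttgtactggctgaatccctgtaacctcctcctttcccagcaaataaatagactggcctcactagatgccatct
Zfp985 upstream: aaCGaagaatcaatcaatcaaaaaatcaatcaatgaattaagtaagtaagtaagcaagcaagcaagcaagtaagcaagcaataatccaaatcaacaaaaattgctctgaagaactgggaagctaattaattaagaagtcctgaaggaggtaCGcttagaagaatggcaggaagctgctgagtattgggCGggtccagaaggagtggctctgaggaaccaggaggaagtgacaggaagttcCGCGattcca
The stretches hold 0, 1 and 5 CG dinucleotides. Those of Cyp3a59 and Cyp3a25 were identical at 239 of 250 positions (95.6%), and the placing of reads in these neighbouring genes is uncertain. Of 786 wholly unmarked protein-coding genes with a full stretch, 43.0% had no CG in the 250 bases before the start, and 0.891% had 10 or more. Over 18028 protein-coding genes with every window valid, 7.16% had none and 48.8% had 10 or more. Olfactory receptor genes made up 368 of the 786, and 52.4% of these had no CG. The 675 other olfactory receptor genes with every window valid were also poor in CG. Of those, 39.6% had none and 0.148% had 10 or more, so low CG was not particular to the unmarked members of this family.

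H3K36me3 in the members was low in each replicate, as the rule required, and these values are given as a description. Over replicates 1 to 3 the mean was 0.384, 0.301 and 0.284 RPKM, or 0.323 ± 0.0535 (SD, n = 3), against 0.9029, 0.8996 and 0.9033 over all valid windows. The members took 891955, 239301 and 264944 reads of the 7888140, 2692510 and 3166564 in the valid windows, between 8.37% and 11.3% of a library. A window without any read made up 20.8%, 58.7% and 57.4% of the members in the 3 replicates. No read in any replicate was found in 41456 members (13.2%), against 3.85% of the windows with H3K27me3 alone and 2.53% of those with H3K4me3 alone.

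Depth limits what a single window can show. A read was worth 0.136 RPKM in the deepest library, replicate 1, and 0.396 and 0.338 in the others, so 1 RPKM was not passed by up to 7, 2 and 2 reads. A window with 0 reads still allows 0.407, 1.19 and 1.02 RPKM in replicates 1 to 3 (3 reads, for counting error only). In replicates 2 and 3 this limit lies above the threshold, and the absence of H3K36me3 from a single window cannot be shown there. Of the members, 76.1% were at or under 1 RPKM in every replicate, 20.5% were above it in 1 replicate and 3.35% in 2. Calls made from each replicate alone gave 318781, 342222 and 308918 unmarked windows, or 27.3% ± 1.44 of valid windows (SD, n = 3). Just inside the threshold, 13653 members had a mean between 0.9 and 1 RPKM, with replicate means of 1.03, 0.847 and 0.969. Just outside it, 13562 windows without other marks had a mean up to 1.1 RPKM, with replicate means of 1.12, 0.973 and 1.06, and 54.5% of these lay in protein-coding genes against 50.5% just inside.

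Most unmarked windows stood alone or in short chains. The members formed 138175 runs of directly adjacent windows, with a median length of 1 window and a longest of 42 windows (84 kb). Single windows held 23.7% of the members and runs of at least 5 windows 36.3%, where calls from single replicates gave 31.2% ± 4.10 (SD, n = 3) in runs of at least 5. The same share was 29.6% for windows with H3K4me3 alone, 49.3% for H3K27me3 alone and 71.8% for H3K36me3 alone. Longest runs were 58 kb, 172 kb and 254 kb in these categories. Runs of at least 10 unmarked windows numbered 2914, and 243 had at least 20. Replicate 2 decided which run was longest: without it, the longest was a run of 128 kb at chr6:59916001-60044000, of whose 64 windows 63 were members with all replicates and 1 reached 1.98 RPKM in replicate 2.

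**Figure D1:**
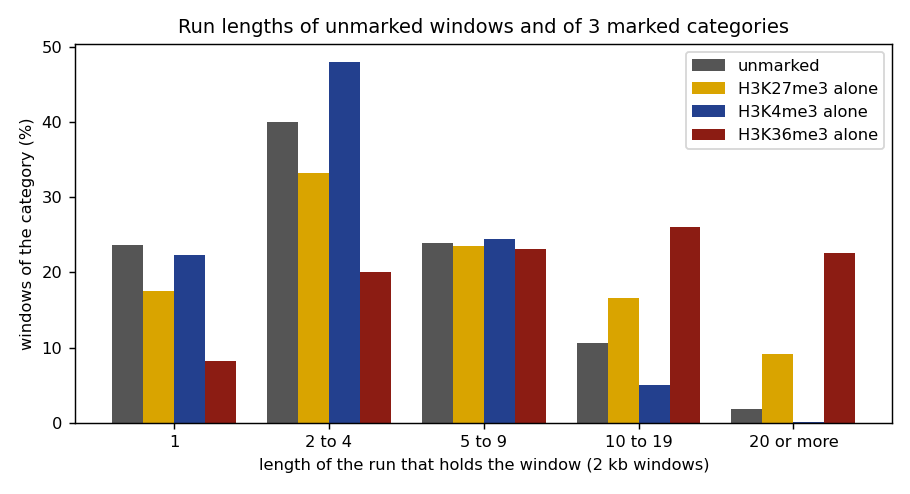
Share of windows (%, vertical axis) by the length of the run that holds them (2 kb windows, horizontal axis), for unmarked windows and 3 marked categories. Unmarked windows and windows with H3K4me3 alone sat mostly in runs under 5 windows, while 71.8% of windows with H3K36me3 alone were in runs of at least 5.

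The longest run lay at chr17:18632001-18716000, beside a cluster of vomeronasal type 2 receptor genes, which encode pheromone receptors. It contained the pseudogene Vmn2r-ps115 and no protein-coding gene, and Vmn2r96 ended 15998 bases away. Its 42 windows held 30, 12 and 12 reads, which is 0.0970, 0.113 and 0.0967 RPKM, and the highest window mean was 0.422 RPKM. The 3 libraries gave nearly the same level, and 14 of the windows had no read in any of them. In the 70 kb on each side, 55 of 57 valid windows were also unmarked, 1 had an H3K4me3 call and 1 an H3K27me3 call. Members made up 26.6% of all valid windows.

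**Figure D2:**
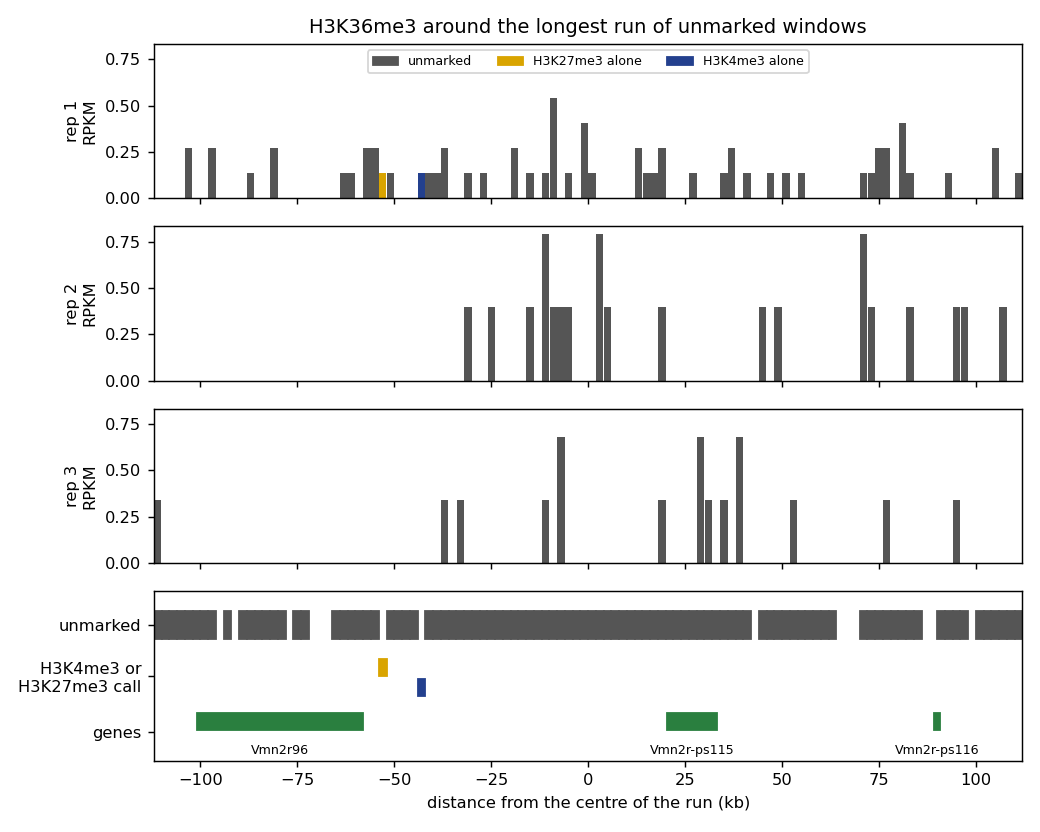
H3K36me3 (RPKM, vertical axes, one panel per replicate) in 2 kb windows around the longest unmarked run, by distance from its centre (kb, horizontal axis), with calls and annotated genes in the lowest panel. Bars are single windows, blank positions in the row of unmarked windows hold a call or a window removed by the authors, and the highest bar is 0.793 RPKM.

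The next runs were of the same kind or lay far from genes. Run 2, at chr17:39148001-39226000 (78 kb), held 57, 18 and 18 reads (0.198, 0.183 and 0.156 RPKM), and its nearest protein-coding gene was Esp22, of the family of exocrine gland-secreted peptides, 50850 bases away. Run 3, at chr9:39118001-39192000 (74 kb), contained the olfactory receptor gene Olfr27 and part of Olfr943, at 0.2496, 0.139 and 0.201 RPKM. Run 4, at chr2:89604001-89676000 (72 kb), enclosed 5 olfactory receptor genes, Olfr1247 to Olfr1251, at 0.143, 0.165 and 0.216 RPKM. Olfactory receptors are the odorant receptors of the nose, and their genes lie in clusters.

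Run 5, at chr19:13450001-13522000 (72 kb), enclosed Olfr1472, Olfr1474, Olfr1475 and Olfr1477 with 4 receptor pseudogenes, at 0.113, 0.132 and 0.0940 RPKM. Runs 6 to 8, of 70 kb each on chromosomes 8, 11 and 12, lay wholly in gene deserts. Their nearest protein-coding genes were Aga at 1127727 bases, Vstm2a at 765724 and Fscb at 245330, and their means over the replicates were 0.166, 0.215 and 0.281 RPKM. Runs 9 and 10, of 68 kb each on chromosomes 7 and 10, overlapped Vmn2r71 and Vmn2r81, at means of 0.192 and 0.141 RPKM. In run 7 replicate 3 gave 0.0870 RPKM against 0.287 and 0.272 in the others, while in run 10 the replicates lay between 0.139 and 0.144. Of the 10 longest runs, 5 thus touched an olfactory or vomeronasal receptor gene. Of all 243 runs of at least 20 windows, 98 touched a protein-coding gene, 31 an olfactory or vomeronasal receptor gene and 117 lay mostly in a desert. Deserts held 47.3% of all unmarked windows, so the desert count was near the share over all members. How many shorter runs touch a receptor gene was not counted.

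The windows next to the runs differed with run length. Of all run ends that met a valid window, 33.9% met H3K27me3 alone, 27.1% H3K4me3 alone and 27.1% H3K36me3 alone. For runs of at least 10 windows the shares were 43.4%, 37.0% and 14.5%. Among all marked windows these categories made up 25.1%, 19.4% and 33.6%. A window removed by the authors stood at 17.5% of all run ends and at 32.9% of the ends of runs of at least 10, so the long runs were more often cut by a removed window than the rest.

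Unmarked windows lay mostly outside protein-coding genes. The window midpoint was inside such a gene for 25.3% of the members (28.3% ± 2.85 by single replicates, SD, n = 3), against 42.2% of all valid windows, 32.1% with H3K27me3 alone, 28.5% with H3K4me3 alone and 72.2% with H3K36me3 alone. Outside genes, the median distance to the nearest protein-coding gene was 169 kb for the members and 88.0 kb for all valid windows. Inside genes 15.96% of valid windows were unmarked, and outside them the share was higher with distance, from 23.5% within 10 kb to 26.2%, 28.9%, 33.9% and 42.2% in the bins out to 500 kb and 57.5% beyond. Single replicates gave 18.3% ± 2.74 inside genes and 55.8% ± 1.77 beyond 500 kb (SD, n = 3), and every replicate was higher beyond 500 kb than within 10 kb. Mean repeat content was 25.7% inside genes, between 32.9% and 34.8% in the bins out to 500 kb and 38.5% beyond, and mean GC content was 43.0% inside genes and 37.2% beyond 500 kb. Their part in the gradient was not tested beyond the values given with base composition.

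**Figure D3:**
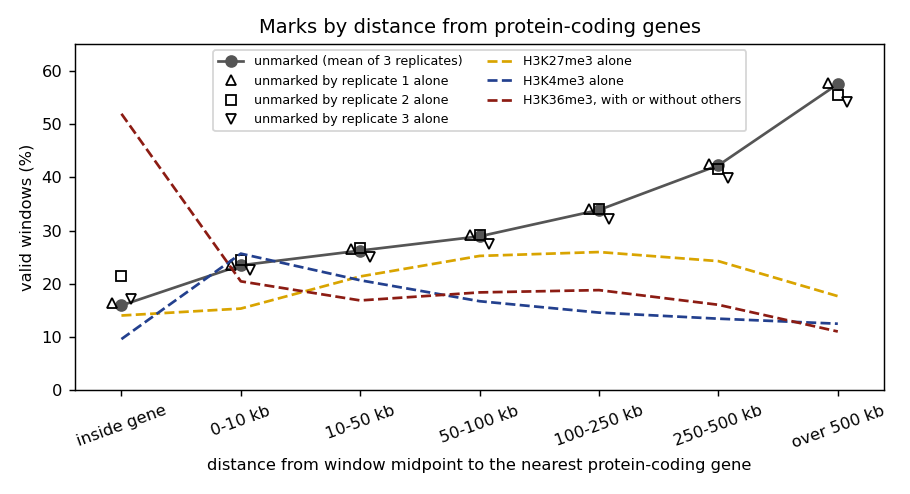
Share of valid windows (%, vertical axis) that were unmarked by the mean of 3 replicates (line) or by each replicate alone (open symbols), and that carried other calls (dashed), by distance from the window midpoint to the nearest protein-coding gene. The unmarked share goes from 15.96% inside genes to 57.5% beyond 500 kb.

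A gene desert was taken as a stretch of at least 500 kb between neighbouring protein-coding genes, and 728 of them covered 822 Mb. Deserts held 29.0% of the valid windows and 47.3% of the unmarked ones. Inside them 43.4% of valid windows were unmarked (42.4% ± 1.31 by single replicates), against 19.7% outside (21.1% ± 1.89, SD, n = 3). The deserts differed among themselves: over the 635 with at least 50% of their windows valid, the median share was 38.7%, and the middle 50% lay between 19.3% and 55.1%. H3K27me3 alone covered 22.8% of desert windows and H3K4me3 alone 14.2%, so deserts were not free of marks.

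The 5 longest deserts differed in their unmarked share. Between Tenm3, a teneurin, and Aga, a lysosomal enzyme, 57.9% of 2197 valid windows were unmarked over 4668 kb (56.3% ± 1.67 by single replicates, SD, n = 3). Between the protocadherin genes Pcdh20 and Pcdh9 the share was 61.8%, and between Olfm4 and Pcdh17 57.6%. Between Celf4 and Pik3c3 it was 42.8%, with 19.1% H3K27me3 alone and 19.1% H3K4me3 alone. Between Cntnap5b and Cdh20 it was 69.2%, where replicates 1 to 3 alone gave 68.9%, 65.5% and 65.1%. The last value was above the other 4 in each replicate, and repeat content was 41.3% there against 30.8% in the Celf4 desert.

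Unmarked windows were poorer in GC and richer in repeats than the marked categories. Mean GC content was 38.9% in the members (39.1% ± 0.222 by single replicates, SD, n = 3), 41.8% over all valid windows and between 41.8% and 42.4% in the 3 marked categories. CpG density was 5.53 per kb against 8.31 over all valid windows. Soft-masked repeats covered 46.3% of the bases of the members (45.3% ± 1.25 by single replicates) and 30.8% of all valid windows. Repeat filled over 50% of the window in 39.1% of the members and in 15.3% of valid windows. From the lowest to the highest of 10 equal bins of GC content, the unmarked share fell from 57.1% to 5.56%, inside genes from 43.7% to 4.40%.

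Repeat content moved with the unmarked share. The unmarked share was 7.70% where repeats covered up to 10% of the window, 15.6% up to 25%, 26.0% up to 50%, 54.5% up to 75% and 92.0% above. Members of the last bin had 0.181, 0.170 and 0.169 RPKM in replicates 1 to 3, and those of the first 0.541, 0.367 and 0.368. Whether reads could be placed in repeats was not measured, and its part in this was not tested. In the 586868 windows with at most 25% repeat, a limit chosen after the values were seen, 14.1% were unmarked: 9.80% inside protein-coding genes and 18.5% outside, 24.9% in deserts and 10.5% elsewhere. The order of genes, intergenic sequence and deserts was thus the same in low-repeat windows, at lower shares.

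**Figure D4:**
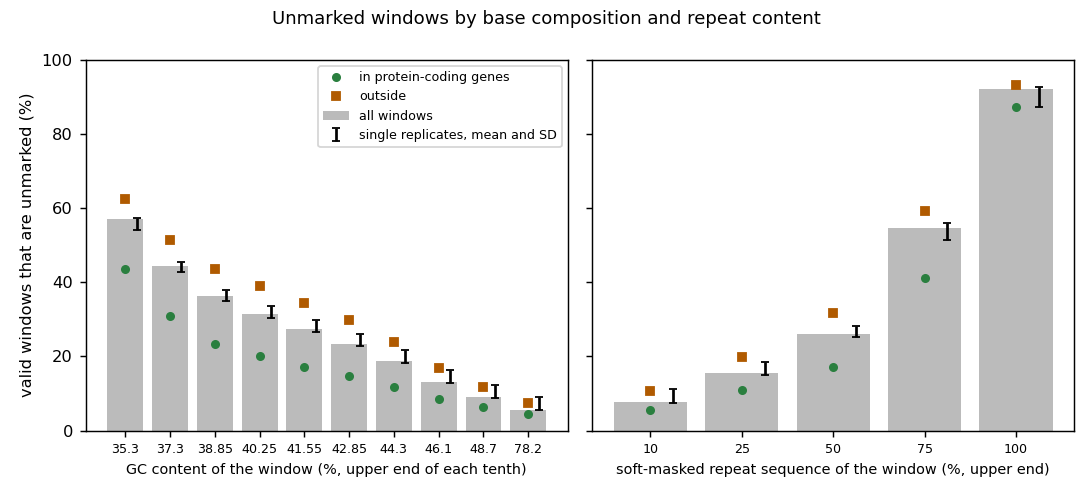
Share of valid windows that were unmarked (%, vertical axis) by 10 bins of GC content (left) and by repeat content (right), labelled by the upper end of each bin. Bars are all windows, error bars the mean and SD of calls by 3 single replicates, circles windows inside protein-coding genes and squares windows outside. The share falls from 57.1% to 5.56% with GC content and rises from 7.70% to 92.0% with repeat content.

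The X chromosome had the highest share of unmarked windows among the 19 autosomes and X. On X 46.2% of valid windows were unmarked, with 46.1%, 46.0% and 42.5% by replicates 1 to 3 alone (44.9% ± 2.08, SD, n = 3). Autosomes together had 25.4% (26.2% ± 1.44), from 17.0% on chromosome 11 to 31.0% on chromosome 3, and each replicate put X above every autosome. Both genic and intergenic windows of X were often unmarked (29.4% and 53.8%). The H3K27me3 call, alone or with others, covered 18.6% of X and 30.6% of autosomal windows. Repeats covered 39.7% of X windows and 30.2% of autosomal ones. In windows with at most 25% repeat the unmarked share was 27.4% on X and 13.6% on autosomes.

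Few protein-coding genes lay wholly in unmarked windows, and most of those that did were chemosensory receptor genes. A gene was counted when every 2 kb window it touched was valid and unmarked. Of 18030 genes with every window valid, 788 were wholly unmarked (4.37%), and 9900 (54.9%) had no unmarked window at all. Single replicates gave 804, 712 and 685 genes, or 734 ± 62.4 (SD, n = 3). Another 3921 genes touched a removed window and could not be judged. The wholly unmarked genes were short, with a median of 4.36 kb against 14.9 kb for all genes judged. By size, 25.6% of genes within 1 window, 10.5% of those of 2 to 4 windows, 3.07% of those of 5 to 9 and 0.312% of larger genes were wholly unmarked. Genes of at least 5 windows numbered 165 of 12877 (1.28%).

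The 12 wholly unmarked genes with the most windows included 5 vomeronasal type 2 receptor genes and 3 cytochrome P450 genes, and Phf11a and Clca4b belonged to none of the lists used. The last 3 were the longest of 12 genes tied at 11 windows. Cyp3a59 and Cyp3a25, cytochromes P450 of the liver, spanned 18 and 17 windows. Cyp3a59 (chr5:146079257-146113287) held 15, 3 and 6 reads, or 0.113, 0.0661 and 0.113 RPKM. Cyp3a25 (chr5:145977194-146009618) had 0.128, 0.280 and 0.0995 RPKM. Replicate 2 was the lowest for the first gene and the highest for the second, and none of the values came near 1.

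Zfp985 (chr4:147553277-147585198), a zinc finger protein gene of 17 windows, had 0.0399, 0.210 and 0.0597 RPKM. Vmn2r67, with 15 windows on chromosome 7, had 0.190, 0.264 and 0.338 RPKM, and Vmn2r73, with 14, had 0.223, 0.170 and 0.0725. Another 3 vomeronasal type 2 receptor genes of the same chromosome, Vmn2r69, Vmn2r70 and Vmn2r77, had means of 0.0651, 0.233 and 0.176 RPKM. Cyp2c50, another liver cytochrome P450, had 0.107 ± 0.0436 RPKM (SD, n = 3), and Klra1, a receptor of natural killer cells, 0.0896 ± 0.0156. Clca4b, of the chloride channel regulator family, had 0.136, 0.0661 and 0.113 RPKM. Phf11a, a PHD finger protein gene, held 0, 2 and 2 reads over 11 windows. These families hold similar copies, and whether reads were lost or shared between copies was not tested. Similarity was measured only for the upstream stretches of Cyp3a59 and Cyp3a25.

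Chemosensory receptors, which detect odours, pheromones and taste, made up 447 of the 788 genes (56.7%) and 6.99% of the genes judged. Of the 1261 chemosensory genes judged, 35.4% were wholly unmarked, against 2.03% of 16769 other genes. The gap was present in each size class: for genes of 2 to 4 windows the shares were 40.9% and 4.80%, for genes of 5 to 9 windows 24.1% and 0.971%, and for larger genes 27.8% and 0.133%. Olfactory receptor genes counted 368 of 1043, with 371, 326 and 317 by single replicates, and Olfr373 and Olfr372, of 11 windows each, had means of 0.0593 and 0.103 RPKM. Vomeronasal receptors counted 48 of 125 for type 1 and 20 of 43 for type 2. Type 1 was led by Vmn1r74, at 0.296, 0.793 and 0.123 RPKM, where replicate 2 stood above the other replicates. Only 43 of 120 type 2 genes could be judged, because the rest touched removed windows.

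Receptor families also differed in the windows that their genes touch. Of the valid windows that touch type 2 vomeronasal genes 85.2% were unmarked, of type 1 75.03% and of olfactory receptor genes 61.7%, where the share over all valid windows is 26.6%. Without the wholly unmarked genes the shares were 82.8%, 67.4% and 46.5%, so fewer than 50% of the windows of the remaining olfactory receptor genes were unmarked. These remaining genes include those that touch removed windows and could not be judged. With only judged genes kept, the shares were 77.8%, 60.8% and 43.8%. Over all valid windows of these families, with the wholly unmarked genes included, H3K27me3 was called in 4.11%, 11.0% and 22.7%, alone or with other marks. Bitter taste receptors differed in their calls, with 33.3% of windows unmarked and 54.9% under H3K27me3, and 8 of 35 genes were wholly unmarked. Trace amine-associated receptors had H3K4me3 calls in 72.7% of their windows, and 3 of 15 genes were wholly unmarked. Without the wholly unmarked genes, 7 of 41 windows (17.1%) of bitter taste receptors were unmarked. For trace amine-associated receptors it was 0 of 18. Both lists had a median of 1 window, and their shares of 22.9% and 20% were not above that of genes of this size. Among all protein-coding genes within 1 window, 25.6% were wholly unmarked. Repeat content was 40.4% for type 2, 33.4% for type 1 and 27.1% for olfactory receptor genes.

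**Figure D5:**
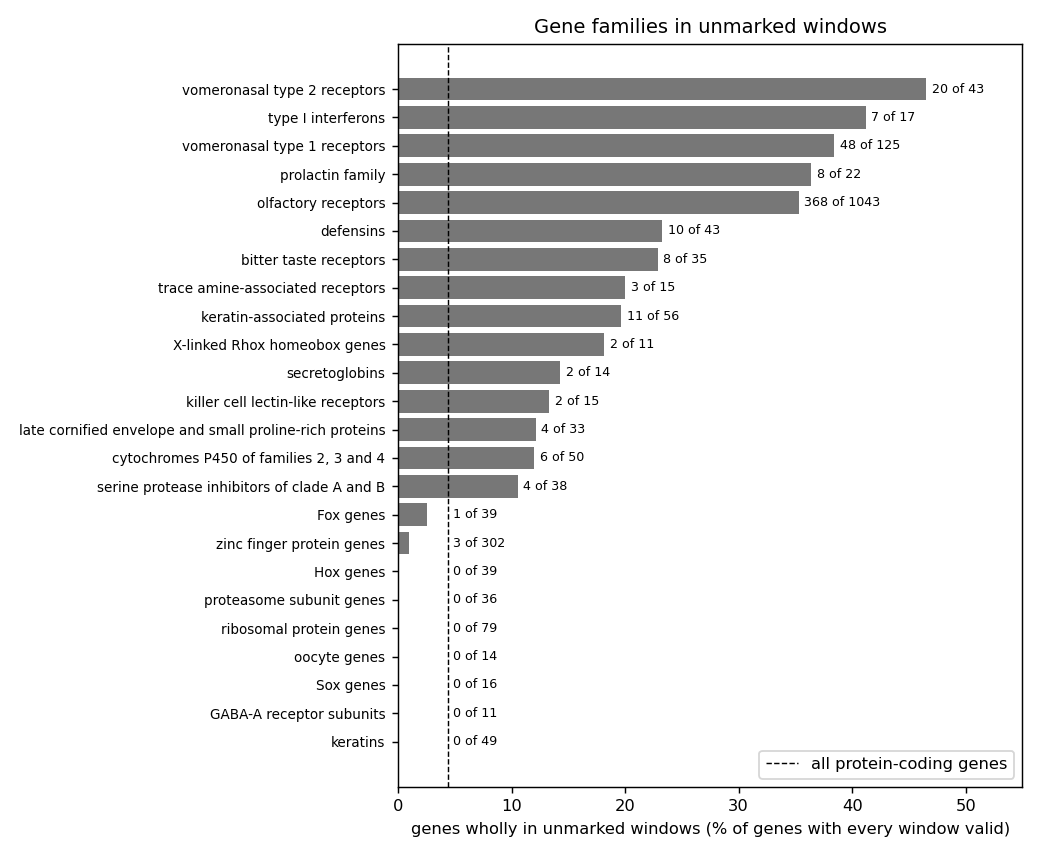
Share of genes wholly in unmarked windows (%, horizontal axis) for each gene list with at least 10 genes judged, with the counts beside the bars and the share over all protein-coding genes (4.37%) as a dashed line. Vomeronasal, olfactory, interferon and prolactin genes lie above 35%, while the Hox, Sox, keratin, oocyte and housekeeping lists have none.

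Some secreted and immune gene families had shares like those of the receptor genes. Type I interferons, the antiviral cytokines, counted 7 of 17, and Ifna9 was above 1 RPKM in replicate 3 alone (0.339, 0.595 and 1.18 RPKM), while Ifna16 had 0.339, 0 and 0.338. The prolactin family, hormones of the pituitary and placenta, counted 8 of 22, among them Prl7a2 at 0.226, 0.793 and 0.338 RPKM and Prl2c1 at 0.163, 0.159 and 0.135. Replicate 2 was again the highest for Prl7a2. Defensins, antimicrobial peptides, counted 10 of 43 and major urinary proteins, carriers of pheromones, 3 of 4, with Mup4 at 0.112 ± 0.0208 RPKM and Mup3 at 0.200 ± 0.171 (SD, n = 3). Only 4 of 22 major urinary protein genes could be judged, because the rest touched removed windows. Killer cell lectin-like receptors counted 2 of 15, serine protease inhibitors of clades A and B 4 of 38, and secretoglobins 2 of 14. The share over all genes judged was 4.37%, and 10.5% for genes of 2 to 4 windows. Secretoglobins, with a median of 2 windows and 14.3% wholly unmarked, were near the latter. With chemosensory genes left out the share for 2 to 4 windows was 4.80%, and secretoglobins were above it.

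Keratin-associated proteins and keratins were not above the share for genes of their size, and families of detoxification were above it. Keratin-associated proteins of hair, with a median of 1 window, counted 11 of 56 (19.6%), where 25.6% of all genes within 1 window were wholly unmarked. Keratins, with a median of 5 windows, counted 0 of 49, where the share for 5 to 9 windows was 3.07%, and 1.69% of keratin windows were unmarked and 65.7% under H3K27me3. Proteins of the cornified envelope of skin counted 4 of 33 (12.1%), in a list with 74.6% of windows under H3K27me3 alone. Their median was 2 windows, and the share for genes of 2 to 4 windows was 10.5%. With chemosensory genes left out that share was 4.80%, and the list was above it. Cytochromes P450 of families 2, 3 and 4 counted 6 of 50 (12%) and UDP-glucuronosyltransferases 2 of 9 (22.2%), with 55.2% and 64.2% of their windows unmarked. Replicates 1 to 3 alone gave 6, 4 and 3 genes of the first list and 2, 1 and 1 of the second. Both lists had a median of 9 windows, where the share for 5 to 9 windows was 3.07%. Among X-linked genes, Rhox homeobox genes counted 2 of 11 and Magea and Mageb genes 1 of 4, and Magea3 had no read in any replicate in its only window.

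Of 94 developmental regulators judged, 1 was wholly unmarked. Hox genes, which set position along the body axis, counted 0 of 39, with no unmarked window among 172 and H3K27me3 calls in 94.2%. Sox genes counted 0 of 16. Fox genes counted 1 of 39, Foxh1, a cofactor of Nodal signalling that fits in 1 window, at 1.22, 1.19 and 0.338 RPKM. Its mean of 0.917 RPKM was close to the threshold, and replicate 3 was the only one that called it unmarked when used alone. Zinc finger protein genes counted 3 of 302 (0.993%), with a median of 9 windows. This was near the 0.971% of genes of 5 to 9 windows outside the chemosensory lists. The lists for ribosomal proteins (0 of 79), proteasome subunits (0 of 36) and oocyte genes (0 of 14) had no wholly unmarked member, against 4.37% of all genes judged. Outside the chemosensory lists the share was 4.80% for genes of 2 to 4 windows and 0.971% for 5 to 9. With so few genes judged, counts of 0 or 1 in the Fox, Sox, proteasome and oocyte lists are near these shares.

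Some oocyte genes nevertheless held unmarked windows. In Nlrp5, a maternal effect gene, 14 of 29 windows were unmarked and the other 15 were above 1 RPKM, and repeats covered 40.4% of the windows. In Oosp1, which encodes an oocyte-secreted protein, 5 of 11 valid windows were unmarked at a repeat content of 62.6%. Kit, the receptor of kit ligand, had 1 of 42. Zp1, Zp2 and Zp3 of the egg coat, Gdf9, Bmp15, Nobox, Figla, Mos, Padi6, Ooep, Npm2 and Dppa3 had 0. These counts are for the 15 listed genes only. Obox5, an oocyte-specific homeobox gene outside the list, was wholly unmarked over 5 windows, at 0.299, 0.476 and 0.609 RPKM. Aurkc, an aurora kinase gene of germ cells, was too, at 0.0272, 0.634 and 0 RPKM over 5 windows.

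Long neuronal genes were unmarked in part and never as a whole. None of 36 judged genes of the 6 neuronal lists was wholly unmarked, but most of the longest touched removed windows, and among all genes of 10 or more windows the share was 0.312%. Within the genes the range was wide. In Grik2, a kainate receptor subunit, 73.6% of 341 valid windows were unmarked, in Cdh7, a type II cadherin, 71.8% of 78, and in Il1rapl1, a synaptic organiser on X, 67.6% of 657. Mean H3K36me3 there was 0.311 ± 0.0626, 0.233 ± 0.0820 and 0.471 ± 0.0342 RPKM (SD, n = 3).

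Of the other long genes in these lists, Gpc6, Grik3 and Cntn1 carried marks along most of their length. In Gpc6, a glypican, 25 of 513 valid windows were unmarked and 483 had an H3K27me3 call. In Grik3, another kainate receptor subunit, 3 of 113 were unmarked and 109 had H3K27me3. In Cntn1, a contactin, 10 of 146 were unmarked and 132 were above 1 RPKM, with a mean of 2.06 ± 0.197 RPKM. In Dmd, the dystrophin gene, kept here in the list of large neuronal genes, unmarked windows (538 of 1081) and H3K36me3 windows (409) shared the gene. GC content was 35.5% in Grik2 and 50.4% in Grik3, and repeat content 35.8% and 16.9%.

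Because the rule used the H3K36me3 values, differences in level were tested only in a replicate that had no part in the choice. Windows were chosen by the calls of the other marks and a mean of 1 RPKM or less in 2 replicates, and the level was read in the third. In the held-out replicate 14.4% ± 2.08 of the windows so chosen were above 1 RPKM, against 82.6% ± 6.19 of the windows chosen as H3K36me3 (SD, n = 3). The test was the exact sign-flip test, two-sided, whose smallest p over 3 replicates is 0.25, so none of 4 contrasts could pass a threshold of 0.05.

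Unmarked windows inside protein-coding genes had higher held-out H3K36me3 than those outside. The levels were 0.723, 0.587 and 0.639 RPKM inside and 0.367, 0.338 and 0.317 outside, and the groups did not overlap. The log2 ratio was 0.93 ± 0.12 (SD, n = 3, exact p = 0.25, adjusted 0.25). Runs of at least 10 windows were lower than single unmarked windows, at 0.267, 0.270 and 0.221 RPKM against 0.679, 0.556 and 0.603, a log2 ratio of -1.28 ± 0.21 (n = 3, exact p = 0.25, adjusted 0.25). Both differences had the same direction in 3 of 3 replicates. Run length was itself built from the calls of the other 2 replicates, so a single window by definition had no adjacent unmarked window. How far this definition sets the direction of the run contrast was not tested.

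Against windows with another mark the ratios depended on the settings. Unmarked windows had 0.464, 0.401 and 0.401 RPKM, windows with H3K27me3 alone 0.402, 0.385 and 0.289, and the log2 ratio was 0.24 ± 0.21 (n = 3, exact p = 0.25, adjusted 0.25). Its direction turned when shares of windows with a read (-0.069) or a threshold of 0.5 RPKM (-0.23) were used. The ratio was 0.13 without replicate 3 and 0.60 in windows of at most 25% repeat. Windows with H3K4me3 alone had 0.546, 0.481 and 0.406 RPKM, and the log2 ratio of unmarked to these windows was -0.17 ± 0.13 (n = 3, exact p = 0.25, adjusted 0.25). Replicate 3 showed almost none of this difference (-0.02), and the direction turned in windows of at most 25% repeat (0.12).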

How the data were processed

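H3K36me3 was profiled by native ChIP-seq from small pools of GV oocytes. Per the methods, the authors mapped trimmed reads to GRCm38 with Bowtie2 2.2.9, quantified adjacent 2 kb windows in SeqMonk and removed windows with very low or high input. Removal of duplicate reads is not given in the sources used here. The deposited RPKM values were whole multiples of the value of 1 read in 100% of windows (tolerance 0.01 read), so reads were recovered. In replicate 1 that value implies a library of 7363926 reads if the values are CPM and of 3681963 if they are also divided by window length. With 7888140 reads in the windows, the first is closer, so RPKM here is the authors' name only. The deposited calls name the marks of each window, without values.

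A run is a chain of adjacent members with no marked or removed window between. Genes (GENCODE M21), repeats (soft-masked bases) and sequences came from GRCm38, the build of the files. Named were the 10 longest runs, the 12 wholly unmarked genes with the most windows, up to 2 such genes of each of 32 lists, the 5 longest deserts and neuronal and oocyte genes. Members and lists were chosen with earlier results of these data known. A mean ± SD of a share or count comes from calls made in each replicate alone, and of an RPKM level from the 3 replicate values of the chosen windows. Held-out values come from windows chosen with the other 2 replicates. No test was run over windows or genes. Held-out levels were tested by exact sign flips with Benjamini-Hochberg adjustment over 4 contrasts, and p-values measure only the spread between these samples. Python 3.11.15, pandas 2.3.3 and scipy 1.17.1 were used, and the run and gene functions were tested on simulated data. Alternatives were another threshold, every replicate at 1 RPKM or less, pooled reads, each replicate left out, bridged removed windows, other definitions of genes and deserts, and a limit on repeats.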

Additional observations from a re-analysis of the deposited data

How the results depend on the processing

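Counts were taken as stable within 1.5 times, other values within the SD of single replicates, and held-out ratios while they kept their direction. By this, 74 of 100 recomputed values were stable, 23 moved and 3 reversed. Requiring every replicate at 1 RPKM or less, or a threshold of 0.5, left 239944 or 234924 of the 315168 members, and the share of members in runs of at least 5 windows became 26.99% or 28.2%, the genic share 21.0% or 20.2%, the unmarked share 35.4% or 35.1% in deserts and 14.1% or 13.6% outside, and repeat content 49.0% or 49.5%. With the threshold of 0.5 GC content was 38.6%. Bridging removed windows gave 45.2% in runs of at least 5 and a longest run of 7652 kb, a span that includes the removed windows. Leaving out 1 replicate gave a longest run of 84 to 128 kb. With all annotated genes the genic share was 31.8%, and the unmarked share 54.9% in deserts and 25.6% outside. Deserts of at least 1 Mb gave 49.3%. Genes of at least 5 windows numbered 165. In windows of at most 25% repeat, added after the data were seen, the genic share was 34.9%, the desert share 24.9%, the share outside 10.5% and GC content 37.8%. The held-out log2 ratio to H3K27me3 alone reversed with shares of windows with a read (-0.069) and with the threshold of 0.5 (-0.23), and the ratio to H3K4me3 alone with low-repeat windows (0.12). The cause was not tested.

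Of the 12 named genes, 3 stayed wholly unmarked when every replicate had to be at 1 RPKM or less and 3 at a threshold of 0.5. Of the 788 genes, 566 and 598 stayed, and with 1 replicate left out between 761 and 765. Apart from the held-out contrasts, which are ratios within a replicate, no fit with a replicate block could be made. No paired analysis was possible because there is only 1 group. Depth limits single windows most, since 0 reads in replicate 2 still allow 1.19 RPKM.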

Other observations

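Genes other than protein-coding ones were also placed wholly in unmarked windows. Unprocessed pseudogenes, copies that keep their introns and often lie in receptor clusters, were wholly unmarked in 570 of 1176 cases with every window valid (48.5%). Processed pseudogenes, which arise by reverse transcription, counted 2390 of 8892 (26.9%). Among small RNA genes the counts were 388 of 1341 for snRNA (28.9%), 360 of 2069 for miRNA (17.4%) and 208 of 1299 for snoRNA (16.01%). Long intergenic RNA genes counted 104 of 4446 (2.34%) and antisense genes 41 of 2713 (1.51%). Many of these genes fit in 1 window, for which the share among protein-coding genes was 25.6%, and reads of pseudogenes and their parent genes may not be told apart.

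Of 20788 protein-coding genes whose start lay in a valid window, 2040 (9.81%) had an unmarked start window, where 26.6% of all valid windows were unmarked.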
